A study of Mus musculus with 6 samples.

Results

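The genes described here encode the proteins of the mitochondrial ribosome, taken as the rows of the RPKM table whose symbol begins with Mrpl or Mrps followed by a digit. The rule found 80 genes of 10755 in the table, 49 with a large subunit symbol (Mrpl) and 31 with a small subunit symbol (Mrps). The cells sequenced were natural killer T (NKT) cells of mouse thymus, a T cell lineage with a nearly invariant receptor for lipids presented by CD1d. The sorted fraction, P1, was positive for a CD1d tetramer loaded with PBS-57 and negative for CD24, NK1.1 and CD44. Wild-type (WT) cells were compared with cells labelled DKO, in which UTX (gene Kdm6a) and JMJD3 (Kdm6b), a pair of demethylases acting on lysine 27 of histone H3, are named as the deleted proteins by the labels and the series title. Both groups shared the tissue, the gate and a mixed C57BL/6 and 129 background, and each held 3 libraries, of which replicates 1 and 2 were female and replicate 3 was male. The ages of the mice, the stretch of each gene that was deleted, and any Cre driver are not stated in the labels. The male library of a genotype cannot stem from the same mouse as its female libraries. Whether the female libraries of a genotype stem from different mice is not told by the labels. A p-value here reflects the spread among 6 libraries, part of which may be technical.

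Mitochondria carry their own ribosome, which translates the few membrane proteins encoded by mitochondrial DNA, all of them subunits of the respiratory chain and ATP synthase. All of its protein subunits are encoded in the nucleus, made in the cytoplasm and imported, and many have counterparts in bacterial ribosomes while others exist only in mitochondria. The large subunit forms peptide bonds and the small subunit reads the messenger RNA. T cells build up mitochondrial translation when they grow and divide.

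Library depths, inferred from the smallest step between RPKM values, came to 32.4, 7.2 and 5.0 M reads in WT (replicates 1 to 3) against 34.4, 7.1 and 6.4 M in DKO. Replicate 1 of both genotypes also stood apart in Cd8a, Cd8b1 and Ptcra, markers of immature thymocytes, whose summed RPKM was 298 and 326 there and 4.49 to 13.1 in the other 4 libraries; the other 2 listed markers of that stage were not in the table. The summed RPKM of Cd24a, Klrb1c and Cd44, the genes of the negative sort markers, was 25.7 and 27.2 in the same pair of libraries and 0.823 to 11.2 in the others. Klrb1c alone, which encodes NK1.1, was at 10.8, 3.51 and 5.59 in WT against 0.784, 0.552 and 0.727 in DKO, a log2 difference of -2.07 ± 0.56 with an adjusted p of 0.215 by limma, so every DKO library was below WT. All 5 markers of T and NKT cells were present, with a summed RPKM of 1176 to 1450 in WT and 1422 to 1684 in DKO, but the sum is carried by Cd3g and Trac. Trac was at RPKM 475, 598 and 483 in WT against 759, 896 and 778 in DKO, and Thy1 at 149, 269.9 and 202 against 38.5, 0.732 and 41.7. Their groups did not overlap, in opposite directions, with log2 differences of 0.65 ± 0.18 and -3.82 ± 1.01 and adjusted p of 0.220 and 0.212 by limma. None of the 3 B cell, 4 thymic epithelial or 3 erythroid markers was in the table, and of 4 myeloid markers only Cd68 was, at 8.85, 5.82 and 4.26 in WT and 3.08 in DKO replicate 3, and listed at 0 in the other DKO libraries. The part of these marker differences in the values of the ribosomal protein genes was not tested. The whole-gene value of Kdm6a was RPKM 4.62 ± 2.57 (SD, n = 3) in WT and 4.59 ± 0.937 in DKO, with an exact two-sided permutation p = 1.0. Kdm6b was at 2.80 ± 1.05 in WT and 1.66 ± 0.834 in DKO, with an exact two-sided permutation p = 0.2, where 0.1 is the smallest p that 3 against 3 libraries allow. A whole-gene value does not check the deletion of part of a gene, so these levels neither bear out nor contradict the label DKO.

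All 80 mitochondrial ribosomal protein genes passed the expression filter of the test (RPKM 1 or more in 3 or more of the libraries). The table itself holds only genes above RPKM 3 in at least 2 libraries, so a family member silent in these cells would not be seen. The median number of reads behind a member was 1186, 373 and 204 in WT replicates 1 to 3 and 1174, 226 and 238 in DKO replicates 1 to 3. The lowest count for any member was 15 reads, for Mrps36-ps2 in DKO replicate 2. Amplified reads do not stand for separate molecules, so read numbers speak of counting error only.

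A few symbols need care. Mrpl23-ps1, Mrpl48-ps, Mrps36-ps1 and Mrps36-ps2 are pseudogene rows, whose near-identical parents Mrpl23, Mrpl48 and Mrps36 may share reads with them. Without these 4 rows the family held 47 large and 29 small subunit genes. Mrps30 and Mrps18a carry small subunit names but their proteins sit in the large subunit, and the Mrps36 protein belongs to a dehydrogenase complex of the citric acid cycle. By structure, and without the pseudogene rows, the family then held 49 large and 26 small subunit genes. In the GENCODE M21 annotation 24 of the 80 genes overlapped an exon of another gene, 17 of them a protein-coding gene. Whether the authors counted reads by strand is not stated in any label, so reads of such neighbours cannot be told apart from those of the member.

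The family was expressed over a wide range. RPKM scales reads to the length given for each gene. The gene models behind these lengths are not stated, so levels are compared between genes with that limit. Among the 47 large subunit genes that are not pseudogene rows, mean RPKM over the 6 libraries ran from 3.42 to 139 with a median of 42.1, a span of 40.7-fold. Among the 29 small subunit genes it ran from 13.1 to 111 with a median of 40.2, a span of 8.5-fold.

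Mrpl30, a large subunit protein with a bacterial counterpart, had the highest mean, at RPKM 135, 173 and 149.5 in WT replicates 1 to 3 and 85.5, 159 and 132 in DKO replicates 1 to 3. Mrpl18 came next and is described with the differences, and Mrpl52, a mitochondria-specific subunit, followed at 99.8, 138 and 144 in WT against 118, 106 and 102 in DKO. The ranges of Mrpl30 and Mrpl52 overlapped each other and overlapped between genotypes, so their order is not resolved. At the other end, Mrpl1, counterpart of a bacterial protein near the exit of spent tRNA, was at 2.19, 5.50 and 4.07 in WT against 0.731, 6.55 and 1.48 in DKO. Mrpl35 was at 8.45, 14.9 and 10.1 in WT against 8.75, 11.2 and 17.9 in DKO. Mrpl1 was below Mrpl35 in each library. Their lengths of 4295 and 3668 bases were the longest among the members, so their low rank depends on the lengths used. Mrpl35 had 395, 292 and 423 reads in WT replicate 2 and DKO replicates 2 and 3. These lay above the member medians of 373, 226 and 238, while its reads in the other libraries lay below the median. Mrpl1 had fewer reads than the median member in every library. Mrpl39, a subunit found only in mitochondria, was at 15.9, 16.6 and 11.9 in WT against 14.8, 9.98 and 8.45 in DKO, overlapping Mrpl35.

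Of the small subunit genes, Mrps16 was at 113, 146 and 71.6 in WT against 156, 67.6 and 112 in DKO. Mrps21 was at 91.6, 146 and 108 in WT against 88.6, 117 and 95.3 in DKO. Mrps23 was at 79.8, 91.4 and 116 in WT against 64.2, 80.0 and 73.4 in DKO. These 3 highest genes overlapped one another. Mrps27, a subunit found only in mitochondria, was at 16.1, 8.24 and 8.39 in WT against 11.4, 15.7 and 18.7 in DKO. Mrps30 was at 13.3, 16.3 and 9.30 in WT against 8.70, 23 and 14.5 in DKO. Mrps36 was at 10.4, 17.5 and 19.5 in WT against 7.71, 9.47 and 21.9 in DKO. These 3 lowest genes with small subunit symbols overlapped one another and between genotypes. By structure Mrps30 and Mrps36 are not part of the small subunit.

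Between genotypes, most members were lower in DKO by a small amount, and none passed the test across all genes. The test was limma on log2(RPKM + 1), two-sided, with Benjamini-Hochberg adjustment over 10694 genes and a threshold of 0.05, and differences are DKO minus WT on that log2 scale, on which changes of low genes look smaller than they are. With it 9 of 10694 genes were called (0.0842%), 8 of them lower in DKO (0.0748%), and 0 of the 80 members. The smallest adjusted p was 0.182 in the large subunit and 0.234 in the small subunit. At an unadjusted p of at most 0.05, 9 large and 4 small subunit genes were lower, against 8.14% of all genes, and 0 were higher, against 2.88%. By voom on the reads recovered from the RPKM steps, 0 members were called as well, as were 0 of all genes (0%). Its unadjusted p was at most 0.05 for 11 lower members and 1 higher member of 80, against 10.4% lower and 5.26% higher over all genes, so the share of members, both directions together, was near the background there. In bulk RNA a lower value can come from fewer cells of a type or from less RNA per cell, which cannot be told apart.

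The log2 difference was below 0 for 39 of 49 large subunit genes (79.6%) and 22 of 31 small subunit genes (71%), against 57.1% of all genes tested. Its median was -0.31 in the large subunit, with quartiles of -0.62 and -0.05, and -0.24 in the small subunit, with quartiles of -0.45 and 0.03, beside -0.11 over all genes. Without the pseudogene rows the small subunit median was -0.18 and that of the large subunit -0.32. By structure the medians were -0.31 and -0.21. These values moved with the scaling of the libraries. After scaling each library by its median log2 ratio the median of all genes was -0.02, that of the large subunit -0.21 and that of the small subunit -0.14. Below 0 were 52 of 80 members, beside 5479 of 10694 genes. After quantile normalization, which moved the median of all genes from -0.11 to 0.01, the medians were -0.20 and -0.12. There 53 of 80 members were below 0, beside 5244 of 10694 genes.

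**Figure D1:**
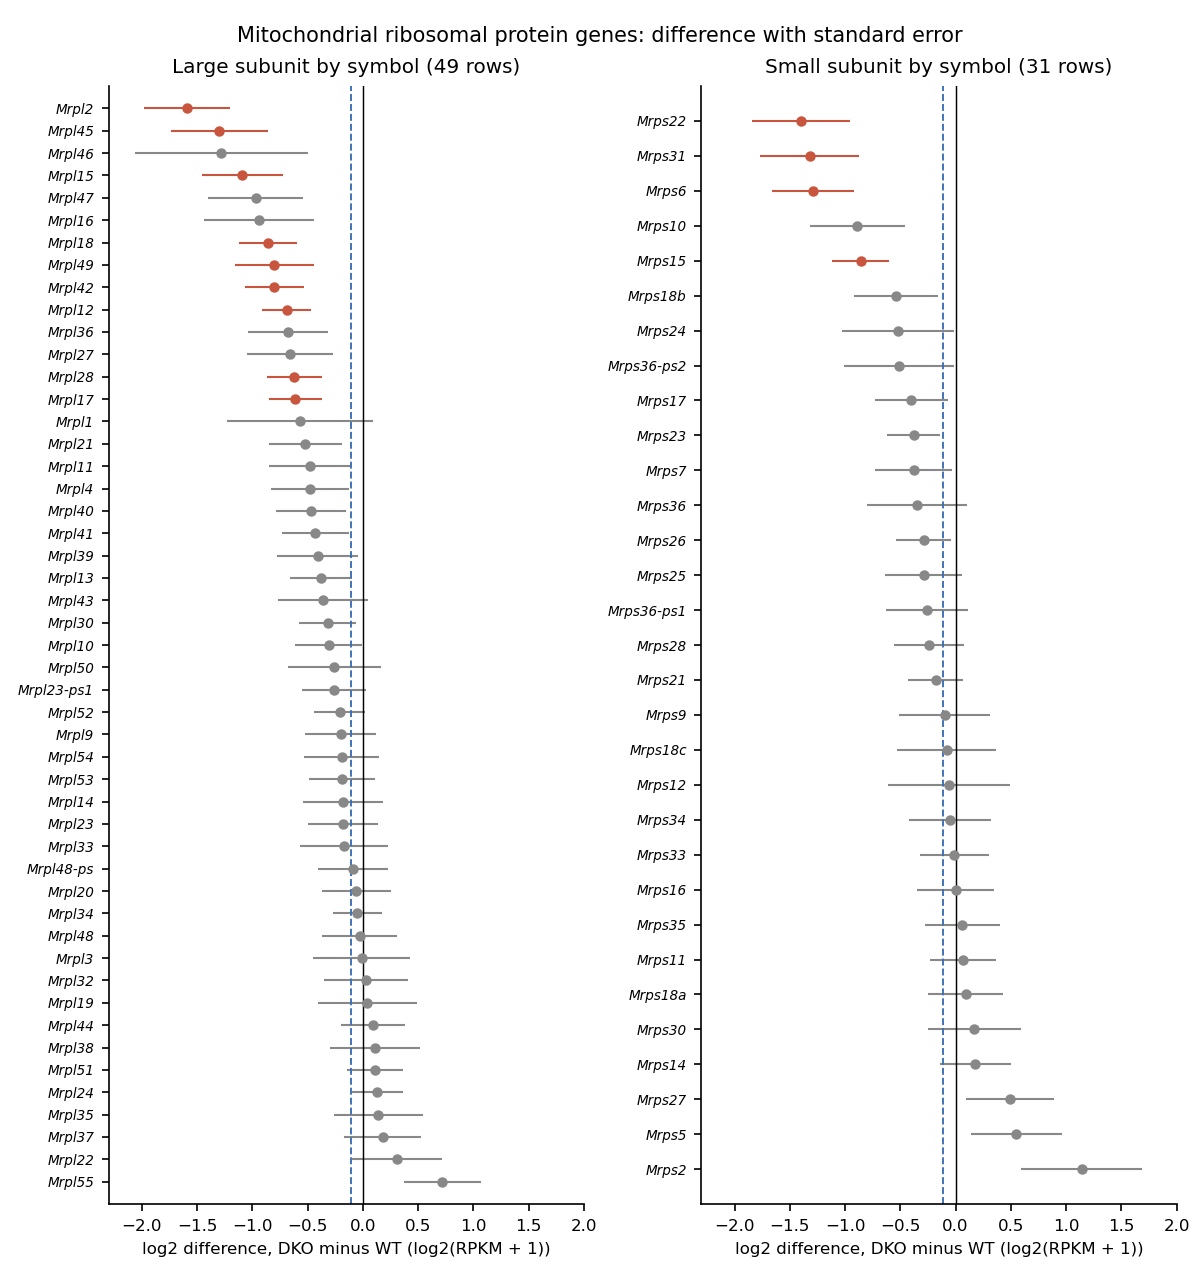
Log2 difference (DKO minus WT, on log2(RPKM + 1)) of each of the 80 members with its standard error from limma, large and small subunit genes apart, ordered by size, with a solid line at 0 and a dashed line at the median of all genes tested (-0.11); red marks members whose groups did not overlap. Most points lie left of 0, from -1.59 for Mrpl2 to 1.14 for Mrps2, and 39 of 49 large and 22 of 31 small subunit genes are below 0.

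In 9 large subunit genes (18.4%) and 4 small subunit genes (12.9%) all 3 DKO libraries were below all 3 WT libraries, against 11.4% of all genes tested, and in 0 members were all DKO libraries above WT, against 5.71%. The small subunit share was near that of all genes. The counts moved with the libraries used, and so did the share over all genes. The large subunit count was 14 without WT replicate 3, where 15.2% of all genes did not overlap, and 16 without DKO replicate 1, where 20.3% did not. In the 4 shallower libraries it was 20, against 26.5% of all genes. The small subunit count was 9 without DKO replicate 3, against 18.4% of all genes.

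Sequence upstream of 4 of these lower members is shown because, of the 4 with the largest differences in each subunit, they are the ones with a match to a searched word in the 250 bases before the start; Mrpl15, among these, had no window and was not searched. RefSeq promoter windows on build GRCm38.p6, of 300 bases from 250 before to 50 after the gene start, were matched to 67 of the 80 members. The 250 bases before the start are printed 5′ to 3′ on the strand of the gene. Capitals mark matches, on either strand, to words of factors known to bind promoters of nuclear genes for mitochondrial proteins. For Mrpl2, at chr17:46645971-46646220 on the plus strand, the first of 3 listed windows is shown, and its capitals are CACGTG, the E-box bound by Myc and related factors, starting at base -131. For Mrpl45, at chr11:97315466-97315715 on the plus strand, they are 2 matches to the NRF1 word, GCGC and TGCGC with any base between them, at -120 and -38. For Mrpl18, at chr17:12916092-12916341 on the minus strand, and Mrps22, at chr9:98601680-98601929 on the minus strand, they are the ETS family word CCGGAAG, at -240 and -11.
Mrpl2: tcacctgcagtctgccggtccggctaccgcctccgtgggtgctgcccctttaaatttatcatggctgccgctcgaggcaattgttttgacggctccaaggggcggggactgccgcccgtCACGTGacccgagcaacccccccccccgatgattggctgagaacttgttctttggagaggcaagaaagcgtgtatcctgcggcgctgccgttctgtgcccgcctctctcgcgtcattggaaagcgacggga
Mrpl45: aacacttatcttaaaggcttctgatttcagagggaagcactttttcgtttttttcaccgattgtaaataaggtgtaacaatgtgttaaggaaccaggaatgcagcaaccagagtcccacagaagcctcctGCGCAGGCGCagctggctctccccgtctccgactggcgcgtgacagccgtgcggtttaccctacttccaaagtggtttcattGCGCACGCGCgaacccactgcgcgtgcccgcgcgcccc
Mrpl18: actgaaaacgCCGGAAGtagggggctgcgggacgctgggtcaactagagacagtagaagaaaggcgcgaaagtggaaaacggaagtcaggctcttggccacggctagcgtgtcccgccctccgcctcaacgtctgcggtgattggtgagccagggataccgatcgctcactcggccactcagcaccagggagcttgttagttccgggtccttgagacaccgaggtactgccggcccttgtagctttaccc
Mrps22: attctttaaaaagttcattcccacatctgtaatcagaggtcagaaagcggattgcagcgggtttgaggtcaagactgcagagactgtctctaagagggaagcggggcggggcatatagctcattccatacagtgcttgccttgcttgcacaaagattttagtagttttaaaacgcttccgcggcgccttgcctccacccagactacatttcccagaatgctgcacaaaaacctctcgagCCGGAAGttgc

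The words also occurred in members outside this group and in many other genes. In the whole 300-base windows, the NRF1 word was in 12 of 67 members (17.9%) and in 13.5% of the 6632 tested genes with a window. CCGGAAG was in 24 (35.8%) against 24.4%, AAGATGG, the word of YY1, in 13 (19.4%) against 9.95%, and CACGTG in 5 (7.46%) against 12.5%. The word of ZBTB33, TCTCG followed by CGAGA, was in 0 members against 1.37%. Both strands were searched. CCGGAAG and AAGATGG can share the letters AAG, but their matches overlapped in 0 members and in 0.0603% of all genes with a window. Of the 13 members whose groups did not overlap, 12 had a window, and the NRF1 word was in 3 of them, CCGGAAG in 3, AAGATGG in 2 and CACGTG in 1. In the other 55 members these words were in 9, 21, 11 and 4. A match is a description of the letters and does not show that a factor binds.

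The largest difference in the large subunit was in Mrpl2, whose protein lies by the site of peptide bond formation. It was at RPKM 28.8, 49.3 and 42.5 in WT replicates 1 to 3 and 17.3, 15.1 and 7.15 in DKO replicates 1 to 3. The highest DKO library was below the lowest WT library, and the log2 difference was -1.59 ± 0.39 (SE), with an adjusted p of 0.182 by limma. Mrpl45 sits at the exit of the nascent chain and ties the ribosome to the inner membrane. It was at 32.5, 49.2 and 44.6 in WT against 23.7, 7.51 and 23.7 in DKO, a log2 difference of -1.30 ± 0.44 with an adjusted p of 0.295. All DKO values were below WT, and DKO replicate 2 was far below the other DKO libraries.

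Mrpl15, a ribosomal RNA binding protein with a bacterial counterpart, was at 52.4, 53.4 and 51.7 in WT against 43.7, 20.9 and 15.2 in DKO. The WT libraries were nearly equal, while DKO replicate 1, one of the deeper pair, lay closer to WT than to the other DKO libraries. The log2 difference was -1.09 ± 0.37 with an adjusted p of 0.300. Mrpl18, a protein of the central protuberance in bacterial ribosomes, was at 139, 212 and 163 in WT against 69.6, 102 and 113 in DKO, a log2 difference of -0.86 ± 0.26 with an adjusted p of 0.266. It overlaps Tcp1 on the opposite strand, a chaperonin subunit that was at 342, 266 and 302 in WT against 189.8, 225 and 241 in DKO. The neighbour was also lower in every DKO library than in any WT library, and its part in the value of Mrpl18 was not tested.

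The stalk of the large subunit recruits translation factors. Mrpl12, the stalk protein, which has also been reported to bind mitochondrial RNA polymerase, was at 106, 91.5 and 97.8 in WT against 64.9, 55.0 and 62.7 in DKO. Each group was tight and the groups did not overlap, with a log2 difference of -0.69 ± 0.22 and an adjusted p of 0.278. It overlaps the noncoding gene Gm16755 on the opposite strand. Mrpl10, which holds the stalk at its base, was at 36.4, 34.1 and 30.8 in WT against 31.1, 32.4 and 19.5 in DKO. Mrpl11, also at the base, was at 45, 68.1 and 44.7 in WT against 39.3, 21.7 and 57.3 in DKO. In both the genotypes overlapped, unlike in Mrpl12; the difference between these genes was not tested.

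Among the other large subunit genes, Mrpl42, a subunit found only in mitochondria, was at 60.2, 87.5 and 92.1 in WT against 37.7, 43.1 and 55.4 in DKO, a log2 difference of -0.80 ± 0.27 with an adjusted p of 0.302. Mrpl49, also mitochondria-specific, was at 29.9, 45.1 and 43.1 in WT against 13.3, 27.1 and 28.9 in DKO, a log2 difference of -0.80 ± 0.36 with an adjusted p of 0.458. The gap between the groups was narrow in Mrpl49, which overlaps Syvn1 on the opposite strand, a ubiquitin ligase at 25.5, 11 and 15.2 in WT against 12.5, 7.61 and 20.4 in DKO. Mrpl17 was at 81.4, 78.8 and 64.0 in WT against 42.1, 49.8 and 53.7 in DKO, a log2 difference of -0.61 ± 0.24. Mrpl28 was at 82.7, 65.3 and 68.6 in WT against 40.3, 45.5 and 54.1 in DKO, a log2 difference of -0.62 ± 0.25. Both have bacterial counterparts, in both the deeper DKO library was the lowest of all 6, and the adjusted p was 0.391 for each. The 40 large subunit genes whose groups overlapped had log2 differences between -1.28 and 0.72.

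In the small subunit, Mrps22 showed the largest difference below 0. It is a mitochondria-specific subunit, and mutations of the human gene cause mitochondrial disease. It was at 17.7, 26.3 and 26.8 in WT against 14.9, 4.62 and 7.67 in DKO, a log2 difference of -1.40 ± 0.44 with an adjusted p of 0.271. The deeper pair of libraries, 17.7 and 14.9, lay close together, and the other 4 lay far apart. Mrps31, another mitochondria-specific subunit, was at 25.9, 17.3 and 20.3 in WT against 5.59, 5.11 and 15.8 in DKO, a log2 difference of -1.32 ± 0.45 with an adjusted p of 0.302. Here DKO replicate 3, the male library, was the one near WT.

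Mrps6, a protein of the small subunit platform, was at 88.9, 109 and 106 in WT against 61.2, 21.3 and 50.6 in DKO. The groups were well apart, with a log2 difference of -1.29 ± 0.37 and an adjusted p of 0.234. The protein-coding genes Slc5a3 and Gm49711 overlap Mrps6 on the same strand. No RPKM is given here for either, and their part in the value of Mrps6 was not tested. Mrps15, which binds ribosomal RNA, was at 67.2, 92.2 and 79.2 in WT against 50.6, 35.4 and 44.1 in DKO, a log2 difference of -0.86 ± 0.26 with an adjusted p of 0.257. All its DKO values were below WT. The 27 small subunit genes whose groups overlapped had log2 differences between -0.89 and 1.14.

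Mrps2 was the member with the largest difference above 0. Its RPKM was 4.30, 11.2 and 15 in WT against 21.7, 11 and 40.0 in DKO, a log2 difference of 1.14 ± 0.55 with an adjusted p of 0.489. The groups overlapped through DKO replicate 2. Mrps10 was at 23.1, 19.9 and 14.8 in WT against 16.9, 9.67 and 5.50 in DKO, a log2 difference of -0.89 ± 0.43 with an adjusted p of 0.494. Mrps23 had a log2 difference of -0.38 ± 0.24 with an adjusted p of 0.588. Both overlapped between genotypes. Mrps12, the protein at the decoding site, was at 73.8, 49.3 and 61.1 in WT against 91.5, 19.4 and 108 in DKO, where the DKO libraries lay on both sides of WT.

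Mrps18a, Mrps18b and Mrps18c are paralogs of a bacterial protein that take different places in the ribosome. Mrps18a was at 38.4, 35.5 and 26.7 in WT against 22.6, 47.9 and 40.7 in DKO. Mrps18b was at 29.7, 51.0 and 38.3 in WT against 15.8, 29.8 and 38.9 in DKO, a log2 difference of -0.54 ± 0.38 with an adjusted p of 0.632. Mrps18c was at 10.2, 20 and 16.5 in WT against 9.24, 26.0 and 11.6 in DKO. The groups overlapped in each paralog, and Mrps18c was the lowest of the paralogs in every library.

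**Figure D2:**
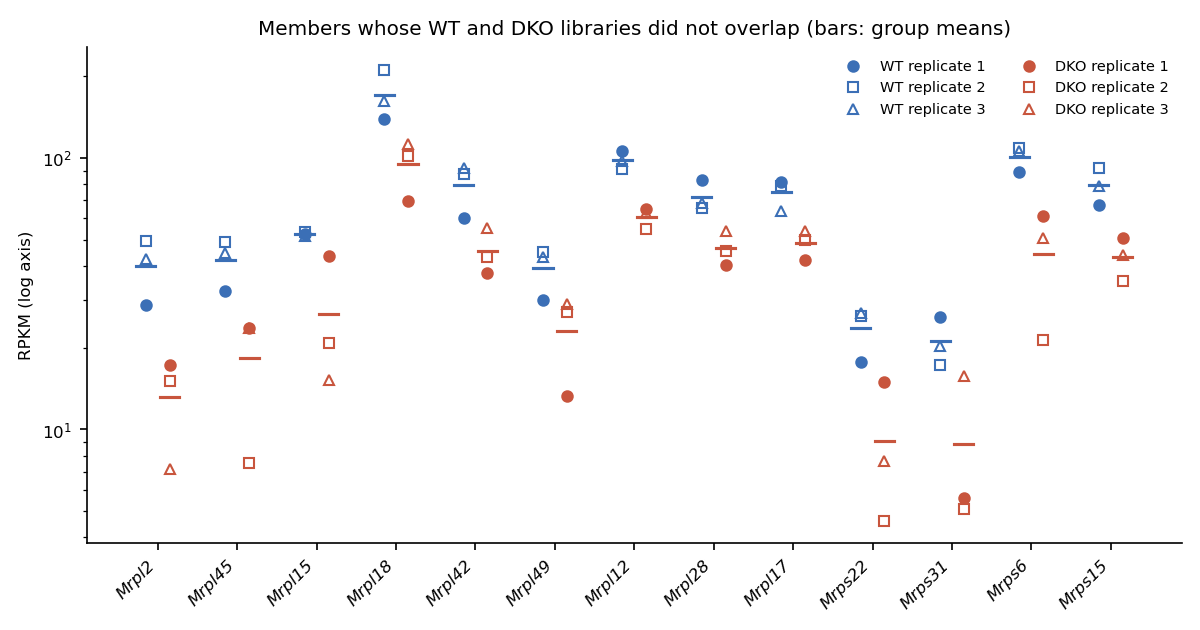
RPKM in each library (log axis) of the 13 members whose 3 DKO libraries were all below the 3 WT libraries; blue marks WT, red marks DKO, the marker shape gives the replicate, and short bars give group means. The gap is wide in Mrpl12 (lowest WT 91.5, highest DKO 64.9) and narrow in Mrpl49 (29.9 and 28.9).

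Summed over the 49 large subunit genes, RPKM was 2480, 3126 and 2756 in WT replicates 1 to 3 and 2106, 2307 and 2329 in DKO replicates 1 to 3. The means were 2787 ± 324 (SD, n = 3) and 2247 ± 123, and the groups did not overlap. All sums here are of RPKM without further scaling of the libraries. Against the WT mean on the log2 scale, the median of all genes tested was at 0.02, 0.02 and -0.01 in WT. In DKO it was at -0.03, -0.13 and -0.06. Whether the sums stay apart after scaling was not tested. Over the 31 small subunit genes the sum was 1259, 1622 and 1451 in WT against 1164, 1158 and 1409 in DKO, with means of 1444 ± 182 and 1244 ± 143. The small subunit groups overlapped through DKO replicate 3. The ratio of the large to the small subunit sum was 1.93 ± 0.04 in WT and 1.82 ± 0.17 in DKO, and the DKO values of 1.81, 1.99 and 1.65 lay on both sides of the WT values of 1.97, 1.93 and 1.90.

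**Figure D3:**
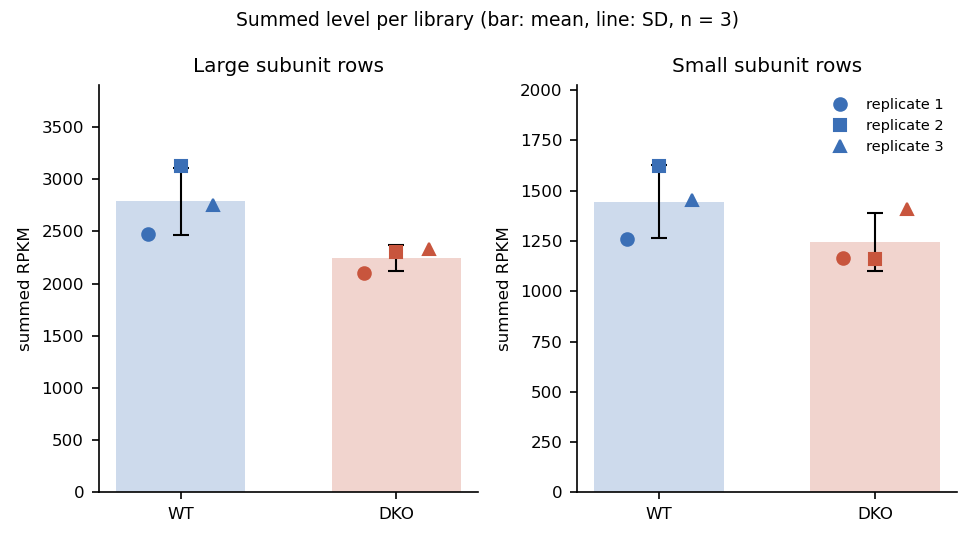
Summed RPKM of large (left) and small (right) subunit genes in each library, with bars at the group mean and lines for the SD (n = 3). The libraries were not scaled further. In the large subunit the DKO libraries (2106 to 2329) lie below WT (2480 to 3126), and in the small subunit DKO replicate 3 (1409) lies within the WT range.

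The size of the difference varied between same-numbered libraries. The numbers follow the sample titles, while the descriptions give both female DKO samples the number 2, so which female DKO library belongs with which WT library is not certain. The median log2 difference of the large subunit was -0.16 between replicates 1, the deeper pair that stood apart in Cd8a, Cd8b1 and Ptcra, -0.47 between replicates 2 and -0.44 between the male libraries. For the small subunit it was -0.28, -0.38 and 0.04. Over all genes the medians were -0.06, -0.15 and -0.05. The small subunit of the male pair was thus the only one of these 6 medians not below 0. WT libraries also differed among themselves: against the WT mean, the median large subunit gene was at -0.19, 0.21 and -0.04 on the log2 scale in WT replicates 1 to 3 and at -0.26, -0.40 and -0.39 in DKO. In the large subunit WT replicate 1 was therefore nearly as low as DKO replicate 1. The median small subunit gene was at -0.20, 0.11 and 0.01 in WT and at -0.46, -0.24 and 0.14 in DKO. There DKO replicate 3 lay above every WT library. DKO replicates 1 to 3 held the lowest of the 6 values in 23, 24 and 16 members, and WT replicates 1 to 3 in 12, 4 and 1.

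Pooled over both subunits, members of different origin had medians close to each other. Of 46 members with a bacterial counterpart, 35 were below 0 with a median log2 difference of -0.27, and groups did not overlap in 8 (17.4%). Of 29 mitochondria-specific members, 21 were below 0 with a median of -0.26, and groups did not overlap in 5 (17.2%). Over all genes tested 57.1% were below 0 and 11.4% were lower without overlap. Within the large subunit by structure, the medians were -0.35 with a bacterial counterpart and -0.21 for mitochondria-specific members. Within the small subunit they were -0.14 and -0.29, in the other order. The difference between these classes was not tested.

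Sex was not resolved in this family. Each genotype held 1 male library, always replicate 3, so sex cannot be told apart from other traits of those libraries. With genotype in the model, 3 of 80 members differed between male and female libraries at an unadjusted p of at most 0.05, against 3.52% of all genes, and 0 after adjustment, where the smallest adjusted p was 0.998 by limma and 0.00935% of all genes were called. Mrps9, a small subunit protein with a bacterial counterpart, was chosen after its values were seen. Its RPKM was 40.6 and 45.6 in female WT libraries, 34.7 and 41.6 in female DKO libraries, 86.0 in the male WT library and 88.6 in the male DKO library, a log2 difference of 1.09 ± 0.28, male minus female. The interaction of genotype and sex reached an unadjusted p of at most 0.05 in 2 members, against 2.74% of all genes, and passed adjustment in 0, as for all genes.

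Genes that work with the mitochondrial ribosome were read from lists of textbook members, and 0 genes of these lists passed the test. As over the members, counts below 0 stand beside 57.1% of all genes. The medians of the other subunits, the translation factors and the aminoacyl-tRNA synthetases were above 0 after quantile normalization, at 0.11, 0.06 and 0.06. Of 7 mitoribosome subunits with other symbols, 4 were below 0 with a median log2 difference of -0.05. Mrpl57, listed in the file as Mrp63, was at RPKM 99.6, 131 and 132 in WT against 96.3, 65.5 and 42.3 in DKO, a log2 difference of -0.88 ± 0.31 with an adjusted p of 0.317. Its groups did not overlap, though replicates 1 nearly met. Gadd45gip1, a large subunit protein, had a log2 difference of -1.79 ± 0.78, with DKO values of 25.6, 5.14 and 94.3. Mrpl58, listed as Ict1, which frees stalled ribosomes, had one of -0.56 ± 0.33.

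Of 17 mitochondrial translation factors, 10 were below 0 with a median of -0.07. Metap1d, a methionine aminopeptidase, had a log2 difference of 0.80 ± 0.35 with DKO above WT in each library, the elongation factor Gfm1 -1.10 ± 0.59, and the release factor Mtrf1 -1.14 ± 0.67. Of 24 assembly factors, 17 were below 0 with a median of -0.27. The ribosomal RNA methyltransferase Mettl15 was at 6.24, 3.30 and 1.69 in WT against 0.865, 0.0751 and 0.495 in DKO, where 0.0751 is the value of 1 read. Fastkd2, an RNA binding protein needed for the large subunit, was at 3.21, 3.77 and 1.55 in WT against 6.62, 10.5 and 5.86 in DKO, a log2 difference of 1.18 ± 0.48. Mettl17 had a log2 difference of -1.28 ± 0.57. The named assembly factors thus lay on both sides of 0.

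Of 19 mitochondrial aminoacyl-tRNA synthetases, which charge tRNAs, 10 were below 0 with a median of -0.10. Pars2, the prolyl-tRNA synthetase, was at 2.31, 1.43 and 1.73 in WT against 10.7, 10.7 and 7.42 in DKO. Every DKO library was far above WT, with a log2 difference of 1.91 ± 0.45 and an adjusted p of 0.171. Yars2 had a log2 difference of -1.40 ± 0.70 and Lars2 of 1.23 ± 0.61, both with overlap. Of 13 genes of mitochondrial DNA and RNA synthesis, 10 were below 0 with a median of -0.40. Tfam, which packs mitochondrial DNA and starts its transcription, was at 88.7, 82.6 and 72.3 in WT against 46.2, 60.9 and 59.5 in DKO, a log2 difference of -0.55 ± 0.24. The helicase Twnk, listed as Peo1, had a log2 difference of 0.94 ± 0.41 and the transcription factor Tfb2m of 0.92 ± 0.42, both with all DKO libraries above WT. Twnk overlaps the member Mrpl43 on the opposite strand.

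Of 7 transcription factors and coactivators linked to nuclear mitochondrial genes, 4 were below 0 with a median of -0.33. Myc, which drives growth and ribosome production, was at 53.8, 47.0 and 45.5 in WT against 41.1, 21.3 and 31.7 in DKO. Its groups did not overlap, with a log2 difference of -0.67 ± 0.30 and an adjusted p of 0.460. Esrra had a log2 difference of 0.54 ± 0.53 and Pprc1 of -0.45 ± 0.48, with overlap in both.

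The cytoplasmic ribosome makes the proteins that are imported into mitochondria, and the respiratory chain takes up those that mitochondria make. Of 75 cytoplasmic ribosomal protein genes by symbol, 10 were below 0 (13.3%) and the median log2 difference was 0.15. All DKO libraries were below WT in 2, against 11.4% of all genes, and above WT in 8, against 5.71%. The identifier of the row with the file symbol Rpl24 now belongs to Zbtb11, and without it the median was 0.17. Under median log2 ratio scaling the median of all 75 rows was 0.26, and after quantile normalization 0.07. After the latter 21 were below 0, beside 5244 of 10694 genes. Rpl30 was at 215, 192 and 164 in WT against 69.4, 93.9 and 96.8 in DKO, a log2 difference of -1.13 ± 0.23 with an adjusted p of 0.126. Rps3a1 had a log2 difference of 0.76 ± 0.18 with an adjusted p of 0.167. Rps27l, a paralog of a small subunit protein, had one of -0.94 ± 0.27 with an adjusted p of 0.230. Genes of this family have many processed pseudogenes, with which reads may be shared.

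Of 83 nuclear genes with symbols of oxidative phosphorylation subunits, 71 were below 0 (85.5%, against 57.1% of all genes) with a median of -0.30. In 16 (19.3%) all DKO libraries were below WT, against 11.4% of all genes. The symbol patterns also took in 5 rows that encode no core subunit, namely Emc8 (listed as Cox4nb), Dmac2 (listed as Atp5sl), Atp5s, Cox7a2l and the pseudogene Atp5l2-ps, named here after their values were seen. Without them 68 of 78 were below 0, the median was -0.30, and groups did not overlap in 15. After quantile normalization the median of all 83 was -0.17 with 65 below 0, beside 5244 of 10694 genes. Uqcrc1, a core subunit of complex III, was at 175, 157 and 167 in WT against 80.5, 88.6 and 115 in DKO, a log2 difference of -0.82 ± 0.22 with an adjusted p of 0.215. Ndufb7 had a log2 difference of -1.07 ± 0.30 and Cox6a1 of -0.69 ± 0.20. The medians of both mitoribosome subunits and of this list lay on the same side of 0 under every scaling tried, while the cytoplasmic ribosomal proteins lay on the other side. Against the WT mean, the median cytoplasmic ribosomal protein gene was at -0.34, 0.18 and 0.17 in WT replicates 1 to 3. In DKO it was at 0.05, 0.18 and 0.33 on the same log2 scale. Between replicates 2 the cytoplasmic median was 0.04, with 33 of 75 genes below 0. The median oxidative phosphorylation gene was at -0.26, 0.22 and 0.06 in WT against -0.43, -0.16 and -0.24 in DKO. Both lists thus overlapped between genotypes, with WT replicate 1 the lowest WT library in each. The difference between the lists was not tested. The mitochondrially encoded proteins, which the mitochondrial ribosome makes, were looked for among the deposited genes, and 0 were found.

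**Figure D4:**
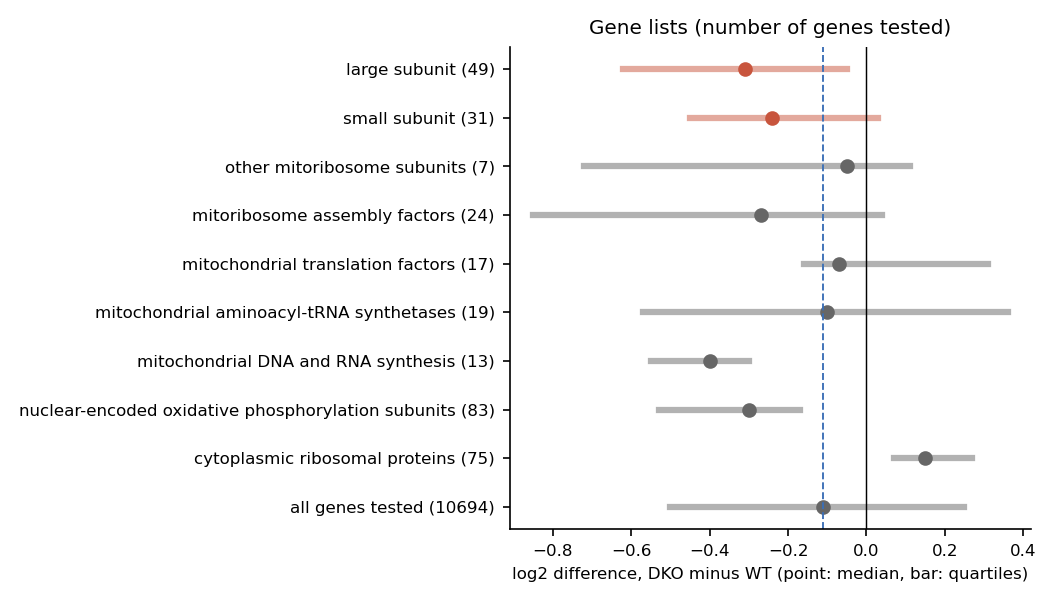
Median (point) and quartiles (line) of the log2 difference, DKO minus WT, for the large and small subunit genes, the related lists other than transcription factors, and all genes tested, with a dashed line at the median of all genes. The large subunit (-0.31), small subunit (-0.24) and oxidative phosphorylation genes (-0.30) lie left of all genes (-0.11), and the cytoplasmic ribosomal proteins (0.15) lie right of 0.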

How the data were processed

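Polyadenylated RNA of sorted cells was prepared by a published protocol with an indexed Illumina kit, per the labels' protocols. Bowtie and the mm9 build were used, per the submitters' processing notes; versions, gene models and the way of counting are not stated there. Deposited by the authors were RPKM values for 10772 rows and 6 libraries. Within a tolerance of 0.05, 99.6% to 100.0% of values per library were whole reads, which gave the depths; 75.6% to 80.6% of reads fell in listed genes.

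Rows sharing a current symbol (GENCODE M21, 9918 identifiers matched, names and exon overlaps only) were merged by keeping the row of highest mean, leaving 10755 genes, and 10694 entered limma (version 3.58.1, R 4.3.3; eBayes with a trend) on log2(RPKM + 1), checked on simulated data. The sex fit held genotype too. Kdm6a and Kdm6b were compared by exact permutation. Summaries used Python 3.11.15 with numpy 2.4.6 and pandas 2.3.3, and figures matplotlib 3.10.9. RefSeq windows were matched by symbol and lie on another build than the RPKM values.

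Members and lists were chosen with earlier results of these data known. Per subunit, the text names the 8 members with the smallest p, the first 8 without overlap of groups, the 3 highest and 3 lowest levels, members fixed by role, and, per related list, the 3 genes with the smallest p. Alternatives were pseudocounts, filters, scalings, covariates, weights, voom and library subsets.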

Additional observations from a re-analysis of the deposited data

How the results depend on the processing

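None of the 80 members was called by limma or voom under any alternative with a test, and the smallest adjusted p over these was 0.0839, for Mrpl2 with array weights. The 19 genes with a current Mrpl or Mrps symbol and a reported log2 difference between genotypes kept its direction in all 361 combinations computed. They include Mrpl57 and Mrpl58, which are outside the 80 members. Where the groups did not overlap, leaving out a library or changing the pseudocount or filter could not reverse the direction. Many of the 361 results were therefore fixed in advance and are no measure of stability. The number of genes called among all tested moved from 9 to 24 with array weights, to 1 in the 4 shallower libraries and to 0 with voom on the recovered reads, where 1677 genes had an unadjusted p of at most 0.05. It ran from 0 to 13 when single libraries were left out: 2 without WT replicate 1, 0 without WT replicate 2 and 0 without WT replicate 3, with 839 and 769 genes at an unadjusted p of at most 0.05 in the last pair. The number of large subunit genes whose DKO libraries were all below WT was 9, ran from 10 to 16 when single libraries were left out, and was 20 in the 4 shallower libraries. That of the small subunit was 4 and ran from 4 to 9, the highest without DKO replicate 3. The same share over all genes ran from 15.2% to 20.3% with single libraries left out and was 26.5% in the 4 shallower ones; the 4 small subunit genes without WT replicate 2 stand beside 16.1%. The median log2 difference lay between -0.42 and -0.16 in the large subunit and between -0.39 and -0.12 in the small subunit, and after quantile normalization it was -0.05 for the small subunit without pseudogene rows and -0.08 by structure. Esrra turned from 0.54 to -0.20 in the 4 shallower libraries; the cause was not tested.

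The same-numbered libraries deviated together with correlations of 0.226, 0.146 and 0.075, and those of different number with -0.176 to 0.035. Each library thus had its highest value with the library of its own number. These correlations are low, and the numbers do not establish a pairing. With the replicate number as a block, 9 genes were called and the medians were -0.31 and -0.24. An unadjusted p of at most 0.05 by limma was reached by 1597 genes with the block and by 1179 without it. The alternatives without pseudogene rows, without the 5 rows of no core subunit and without the Zbtb11 row were chosen after seeing the data. Depth and the 3 libraries per genotype limit what can be seen: the median member rested on 204 reads in the shallowest library.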
